A study of Mus musculus with 4 samples.

Results

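The 45 genes described here encode the enzymes and regulators of DNA replication and S phase. They were given as a list of mouse symbols and matched to the deposited gene tables by Entrez identifier. All 45 were listed in every library, among 16739 genes with a value in at least 1 library. The list holds 6 subunits of the replicative helicase, 3 origin licensing factors, 5 factors that activate the helicase, and 4 subunits of primase and polymerase alpha. It also holds 4 subunits of polymerases delta and epsilon, the sliding clamp with its 5 loader subunits, 3 single-strand binding subunits and 2 enzymes that join Okazaki fragments. The rest are 5 enzymes of nucleotide supply, 4 factors of chromatin replication and 3 regulators of entry into S phase.

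RNA sequencing was done on tumor-associated macrophages (TAMs), sorted as CD45+CD11b+F4/80+ cells from melanomas that grew from B16-F10 cells under the skin of C57BL/6 mice. The WT group held 2 libraries. The other group also held 2 libraries, from mice with floxed Trim24 alleles and LysM-Cre, a recombinase driven by the lysozyme M gene of myeloid cells. Tumor cells were injected at an age of 6 to 8 weeks, and TAMs were taken 16 days later. Trim24, which encodes a chromatin-binding E3 ligase, is floxed in all tissues of the mutant mice but is cut only where lysozyme M has been active, so monocytes and granulocytes can be affected besides macrophages. All mice carried tumors. The sources used here do not say whether the WT littermates carried floxed alleles or Cre, how much of Trim24 was cut in the sorted cells, or whether each library came from 1 mouse.

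Before S phase, origin recognition factors, Cdc6 and Cdt1 load the hexameric MCM helicase onto DNA. The helicase is then switched on by Cdc45 and the GINS complex, primase and polymerase alpha start each strand, and polymerases delta and epsilon extend the strands on the PCNA clamp. Many of these genes are transcribed together at the transition from G1 to S phase by E2F factors, and their transcripts are commonly used as a mark of dividing cells. Tissue macrophages can divide locally, while TAMs are also fed by blood monocytes.

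Promoters are shown first. The list was not chosen by the E2F motif, but many of its genes are known to be transcribed by E2F factors. The motif is therefore not independent of the list, and its search was chosen after seeing the data. The RefSeq promoters of GRCm38.p6 cover 250 bases before to 50 bases after an annotated start, and 37 of the 45 genes had an entry. Mcm4, Gins1, Gins2, Gins4, Prim2, Pole, Rfc2 and Ccne2 had none. The E2F motif was searched on both strands as TTTCCCGC, TTTCGCGC, TTTGCCGC or TTTGGCGC, and matches on opposite strands may overlap. It stood in 12 of the 37 promoters (32.4%), against 441 of the 9100 promoters of tested genes (4.85%) and 704 of all 27025 genes in the table (2.61%). Below are 4 of these promoters, those of helicase, licensing and polymerase genes whose motifs lie upstream of the start and outside annotated exons. Each sequence is printed 5′ to 3′ on the strand of the gene, with the motif matches in capitals.
Mcm6, chr1:128359721-128359839, minus strand: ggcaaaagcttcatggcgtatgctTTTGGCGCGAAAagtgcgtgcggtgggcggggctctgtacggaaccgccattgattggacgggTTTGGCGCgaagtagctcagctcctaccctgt
Mcm5, chr8:75109332-75109391, plus strand: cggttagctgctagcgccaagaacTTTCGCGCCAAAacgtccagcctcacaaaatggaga
Cdc6, chr11:98907989-98908044, plus strand: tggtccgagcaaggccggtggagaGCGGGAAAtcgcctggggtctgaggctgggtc
Pola1, chrX:93632262-93632317, minus strand: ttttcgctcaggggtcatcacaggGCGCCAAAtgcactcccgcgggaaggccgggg

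The Mcm6 stretch holds 3 matches, of which 2 overlap within its leading run of capitals, and the Mcm5 stretch holds 2 that overlap. Mcm3, Mcm7, Rfc3, Lig1, Pold1, Cdt1, Pole2 and Uhrf1 also held the motif. The same windows were searched for 3 other motifs. The CCAAT box stood in 22 of the 37 promoters (59.5%) against 43.3% of tested genes, and the GC box GGGCGG in 29 (78.4%) against 67.6%. The CHR element TTTGAA, known from genes of G2 and mitosis, stood in 4 (10.8%) against 14.9% of tested genes, and in 15 of 21 promoters of mitosis genes (71.4%). The E2F motif stood in 1 of those 21 (4.76%). A match is a description of letters in this window and does not show that a factor bound there.

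The 4 libraries held 4476122 to 5172407 expected counts, and 3 counts, the limit of detection by counting error only, corresponded to 0.58 to 0.67 CPM, expected counts scaled to a common library size. Trim24 transcript did not separate the groups, with 5.82 and 2.12 CPM in WT against 3.43 and 0.411 CPM in the mutants (edgeR adjusted p = 0.635), so the mutant libraries are named by their label, as libraries labelled Trim24-deficient. Sex-linked transcripts ran with the genotype label, although the study's methods describe sex-matched mice. Xist was at 10.9 and 6.51 CPM in WT against 437 and 256 CPM, and Y-linked Ddx3y at 73.6 and 102 CPM against 0.426 and 0.411 CPM. Sex and genotype therefore cannot be told apart in any comparison here. All 9 macrophage markers, among them Adgre1 and Csf1r, were present in every library, summing to 8725 to 9623 CPM in WT against 10550 to 10570 CPM. All 7 melanoma markers were also above 0 in every library, summing to 812.5 and 773.4 CPM in WT against 611 and 803.8 CPM. The 4 monocyte markers summed to 507 and 628 CPM against 1635 and 1023 CPM, T and NK markers to 107 to 186 CPM against 110 to 378 CPM, and neutrophil markers to 87.6 to 109 CPM against 99.2 to 241 CPM, with Elane and Mpo not listed. Dendritic cell markers summed to 56.6 to 76.9 CPM against 62.2 to 126 CPM, B cell markers to 46.3 to 55.3 CPM against 51.6 to 55.4 CPM with Pax5 not listed, endothelial markers to 18.1 to 20.8 CPM against 28.0 to 42.2 CPM, and all 5 fibroblast markers were under 3 CPM.

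Replication and S-phase transcripts were present at moderate levels in all TAM libraries and tended to be lower in the libraries labelled Trim24-deficient, but no gene of the list passed the test. Summed over the 45 genes, WT replicate 1 held 4147 CPM and WT replicate 2 held 3702 CPM, while the libraries labelled Trim24-deficient held 3098 CPM (replicate 1) and 3802 CPM (replicate 2). The lowest sum belonged to a library labelled Trim24-deficient, but its partner lay between the WT sums, so the groups overlapped in TMM-scaled CPM. Library totals gave 4273 and 3982 CPM in WT against 2965 and 3584 CPM. Upper-quartile factors gave 4212 and 3790 CPM against 3063 and 3698 CPM. Neither overlapped, nor did FPKM sums of 1864 and 1710 against 1295 and 1563. The median log2 fold change of all genes was -0.15 with library totals and -0.06 with upper-quartile factors. Without Pola2, TMM-scaled sums were 3866 and 3345 CPM in WT against 2895 and 3364 CPM. The log2 ratio of the mean TMM-scaled sums with Pola2 was -0.19, against a pooled SD of the log2 sums within groups of 0.169. In bulk RNA, fewer dividing cells and less of these transcripts per cell cannot be told apart.

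All 45 genes passed the filter on low counts, and the lowest count of any of them in any library was 52. edgeR's quasi-likelihood test called 0 of the 45 at a fold change above 1.5 and an adjusted p below 0.05, where it called 42 of 11302 genes tested (0.372%), 9 of them lower (0.0796%). DESeq2 and limma on log2(FPKM + 1) also called 0 of the 45, where they called 1.38% and 0.207% of all genes. At an unadjusted p under 0.05, edgeR counted 6 of the 45 genes in either direction (13.3%), near the 12.2% of all tested genes. All 6 were lower, a direction in which 5.62% of all tested genes passed. DESeq2 counted 3 of the 45 at that level, against 7.95% of all genes. Limma counted 15 of the 45 against 13.2% of all genes, and 16 against 9.77% without its filter on low values. These fits used FPKM without TMM. In them the median log2 fold change of all genes was -0.13, or -0.09 without the filter, and 67.4% or 65.7% of all genes were below 0.

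The fitted log2 fold change, libraries labelled Trim24-deficient over WT, was below 0 for 34 of the 45 genes (75.6%), against 50.6% of all tested genes. Its median was -0.22, against -0.01 over all tested genes, and it ran from -0.998 for Pole to 0.20 for Ccne1. Both libraries labelled Trim24-deficient lay below both WT libraries for 20 of the 45 (44.4%), against 23.0% of all tested genes. The opposite order held for 1 gene, Rpa3, or 2.22%, against 21.5%, and the groups overlapped for the remaining 24. Scaling by library totals without TMM gave a median of -0.36, but that scaling also moved the median of all genes to -0.15. The median was -0.09 without WT replicate 1 and -0.14 without the library labelled Trim24-deficient replicate 1, with 28 and 29 of the 45 genes below 0. Without the library labelled Trim24-deficient replicate 2, 2 of the 45 genes were called, Pole and Tk1, while the calls over all genes went from 42 to 652 (5.54%).

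**Figure D1:**
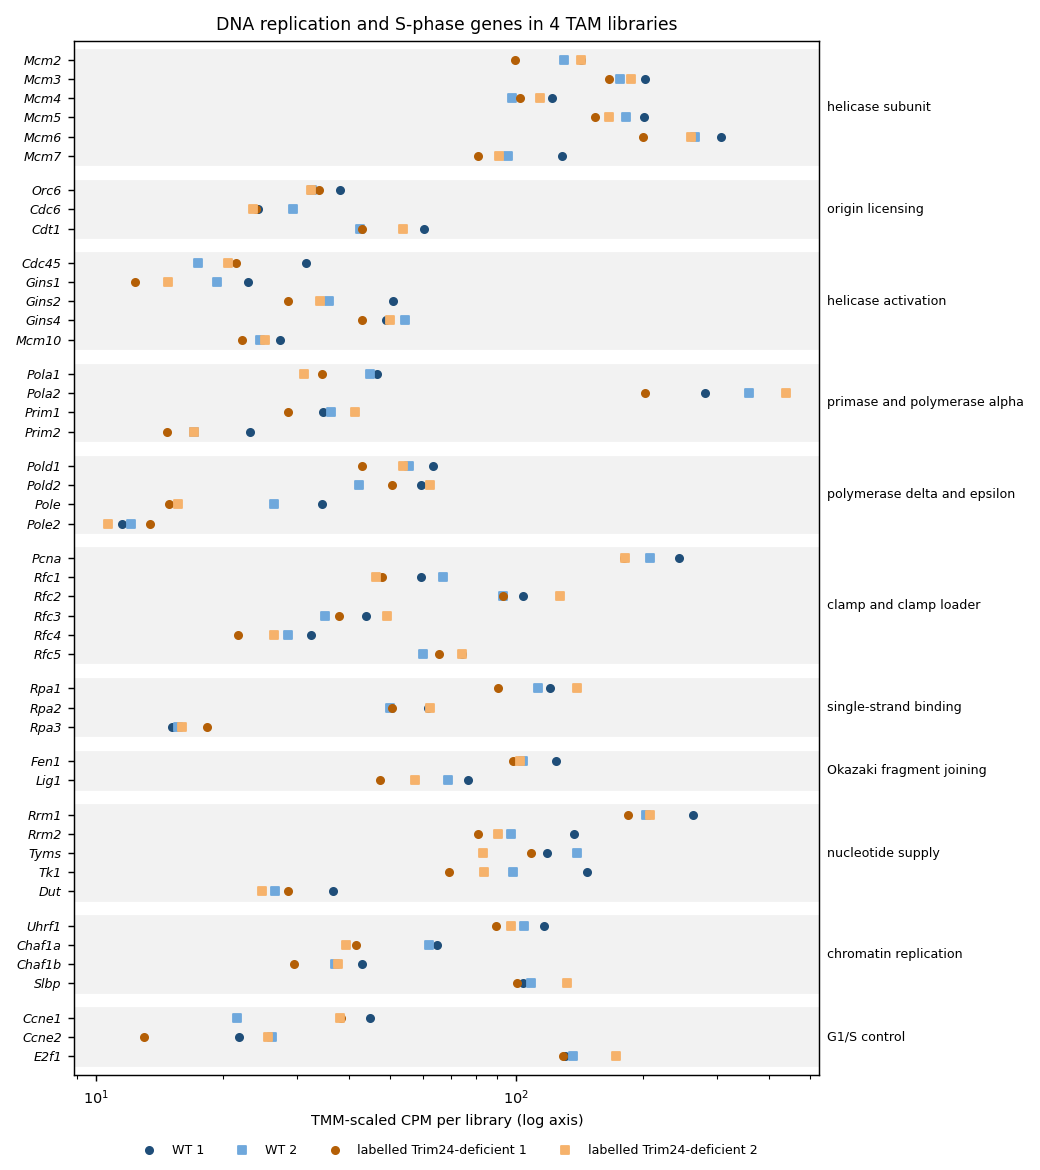
Level of each of the 45 genes in the 4 libraries, in TMM-scaled CPM on a log axis, grouped by role; each point is 1 library. In 27 of the 45 rows the lowest point is the library labelled Trim24-deficient replicate 1, and in 28 rows the highest is WT replicate 1.

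The libraries also differed within each group. The library labelled Trim24-deficient replicate 1 was the lowest of the 4 for 27 of the 45 genes, against 27.1% of all tested genes. WT replicate 1 was the highest for 28, against 2063 of the 11302 tested genes. Replicate 2 of the libraries labelled Trim24-deficient was the lowest for 8 genes and WT replicate 2 for 9, against 3252 and 2904 of the 11302. For 33 of the 45 genes the gap between the libraries of at least 1 group was larger than the difference between the group means. The share over all tested genes was not counted. WT replicate 2 lay below WT replicate 1 for 34 genes, with a median log2 ratio of -0.20, and the library labelled Trim24-deficient replicate 2 lay above replicate 1 of its group for most genes, with a median log2 ratio of 0.18. Set against each WT library in turn, the library labelled Trim24-deficient replicate 1 had median log2 ratios of -0.39 and -0.24. Replicate 2 had -0.24 and -0.02, so against WT replicate 2 it was near level.

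The library with the lowest sum of replication genes also had the lowest sum of melanoma markers, 611 CPM, and the highest sums of monocyte markers, 1635 CPM, and of T and NK markers, 378 CPM. Their part in the result was not tested. Over the whole list, 6 of the 7 melanoma markers had log2 fold changes below 0, with a median of -0.46. Of the 7, 4 did not overlap and were lower (57.1%, against 23.0% of all tested genes). Tyr, the melanocyte tyrosinase, was the exception above 0, at 411 and 424 CPM in WT against 375 and 496 CPM, and it made up the largest part of the summed level.

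**Figure D2:**
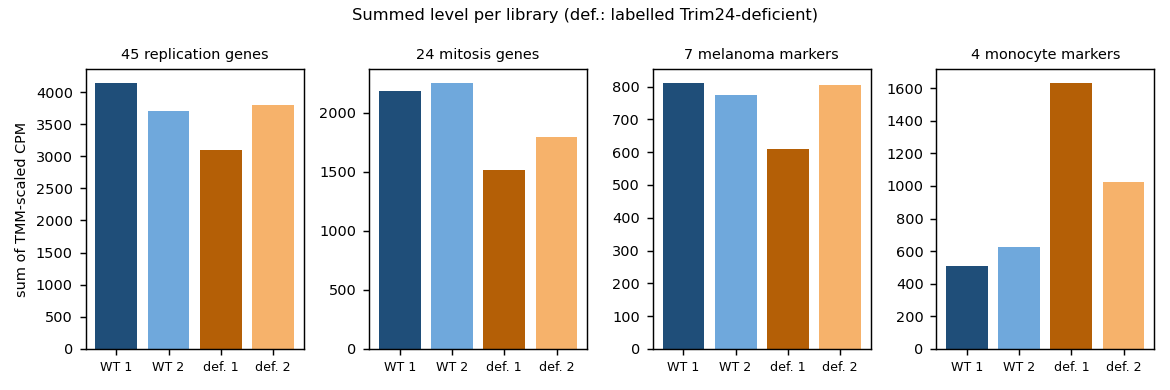
Summed TMM-scaled CPM per library of the 45 replication genes, 24 mitosis genes, 7 melanoma markers and 4 monocyte markers; each bar is 1 library and each panel has its own axis from 0. The replication sum of the library labelled Trim24-deficient replicate 2, 3802 CPM, lies between those of the WT libraries, while both mitosis sums of that group, 1518 and 1796 CPM, lie below both WT sums. With library totals in place of TMM, that replication sum is 3584 CPM, below the WT sums of 4273 and 3982 CPM.

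Below, each set of 4 values gives WT replicate 1, WT replicate 2 and then both libraries labelled Trim24-deficient, replicate 1 before replicate 2. The 6 MCM subunits form the ring that unwinds DNA ahead of the fork, and all 6 had fitted log2 fold changes below 0, with a median of -0.22 (-0.12 without WT replicate 1, -0.07 without the library labelled Trim24-deficient replicate 1, -0.39 without its replicate 2). Mcm6, the most abundant subunit per length, was at 307, 267, 200 and 261 CPM. The library labelled Trim24-deficient replicate 2 lay just under WT replicate 2, and its partner far below. Mcm5 was at 202, 182, 154 and 166 CPM, and Mcm7 at 129, 95.6, 80.9 and 90.8 CPM, both without overlap between the groups. Mcm2 was at 142, 130, 99.0 and 142 CPM, so that the libraries labelled Trim24-deficient held its lowest and its highest value (log2 fold change -0.17, SE 0.22, adjusted p = 0.790). Mcm3 at 166 to 202 CPM and Mcm4 at 97.7 to 122 CPM overlapped between the groups as well.

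Licensing factors place this ring on DNA, and their levels differed little. Cdc6, the loading ATPase, was at 24.2, 29.4, 24.1 and 23.6 CPM, which separated the groups by less than 1 CPM. Cdt1, its partner in loading, was at 60.4, 42.5, 42.8 and 53.8 CPM, and Orc6, an origin recognition subunit, at 38.0, 32.7, 33.9 and 32.5 CPM. The groups overlapped for both. The median log2 fold change of these 3 genes was -0.09, and 0.04 without WT replicate 1.

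Helicase activation showed larger differences within the GINS complex, which binds the MCM ring together with Cdc45. Gins1 was at 23.0, 19.4, 12.4 and 14.8 CPM, both libraries labelled Trim24-deficient below both WT libraries (log2 fold change -0.64, SE 0.27, adjusted p = 0.377). Gins2 was at 50.9, 35.8, 28.5 and 34.1 CPM, in the same order of groups but with WT replicate 2 close to the others. Of the 3900 exon bases of the annotated transcripts of Gins2, 70.7% are shared with Gse1 on the opposite strand. The deposited length of Gins2 is 1061 bases, so the shared part of the counted transcript was not measured. Gins4 was at 49.1, 54.4, 43.0 and 50.1 CPM and overlapped. Cdc45 was at 31.5, 17.5, 21.5 and 20.5 CPM, so its lower mean in the libraries labelled Trim24-deficient came from the high value of WT replicate 1. Mcm10, which helps start the fork, was at 22.3 to 27.4 CPM in all libraries. The median of these 5 genes was -0.22. It was -0.18 without WT replicate 1 and -0.58 without WT replicate 2. Without the library labelled Trim24-deficient replicate 1 it was -0.25, and -0.26 without replicate 2 of that group.

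Primase and polymerase alpha, which lay down the primers, gave discordant values. Pola1, the catalytic subunit, was at 46.6, 44.8, 34.5 and 31.2 CPM, with close replicates and no overlap (log2 fold change -0.48, SE 0.20, adjusted p = 0.377). Pola1 lies on the X chromosome, and without it 33 of the other 44 genes were below 0, with a median of -0.20. Pola2, the accessory subunit of the same complex, was at 281, 358, 203 and 437 CPM, and its lowest and highest values both came from libraries labelled Trim24-deficient. Prim1, the catalytic primase subunit, was at 34.7, 36.3, 28.5 and 41.3 CPM and spread in the same way. Prim2, the large primase subunit, was at 23.2, 17.1, 14.7 and 17.1 CPM, where replicate 2 of both groups was nearly level.

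Polymerases delta and epsilon held the largest single difference of the list. Pole, the catalytic subunit of the leading-strand polymerase, was at 34.5, 26.5, 14.9 and 15.6 CPM. The libraries labelled Trim24-deficient were close to each other and well below both WT libraries (log2 fold change -0.998, SE 0.25, adjusted p = 0.157). These levels rested on 171, 127, 70 and 76 counts, few for the longest transcript of the list. With the trend of fold changes on gene length removed, Pole was at -0.79, close to Tk1 at -0.77 and Gins1 at -0.74. Pole2, which binds Pole, was at 11.5, 12.1, 13.4 and 10.7 CPM and overlapped. Pold1, the catalytic subunit of polymerase delta, was at 63.4, 55.4, 42.8 and 53.6 CPM, and Pold2, its accessory subunit, at 59.4, 42.3, 50.5 and 62.5 CPM. Pold1 did not overlap, whereas Pold2 did and had a mean above WT (log2 fold change 0.15, SE 0.23, adjusted p = 0.831).

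PCNA, the clamp that holds polymerases on DNA, was at 244, 209, 181 and 181 CPM for Pcna. The libraries labelled Trim24-deficient were nearly equal and below both WT libraries (log2 fold change -0.32, SE 0.19, adjusted p = 0.528). The 5 subunits of its loader did not move together. Rfc1, the large subunit, was at 59.2, 67.1, 47.9 and 46.4 CPM, and Rfc4 at 32.5, 28.5, 21.7 and 26.5 CPM, both without overlap. Rfc2 was at 104, 92.9, 93.1 and 127 CPM (log2 fold change 0.16, SE 0.21, adjusted p = 0.792). Rfc3 was at 43.8, 35.0, 37.9 and 49.3 CPM (log2 fold change 0.15, SE 0.22, adjusted p = 0.833), and Rfc5 at 60.0 to 74.3 CPM. For Rfc2 and Rfc3 the higher mean came from the library labelled Trim24-deficient replicate 2. Rfc3 was at -0.0006 with library totals, where the median of all genes was -0.15.

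Replication protein A coats single-stranded DNA, and its 3 subunits gave no common direction. Rpa1 was at 120, 113, 90.3 and 140 CPM, with the libraries labelled Trim24-deficient at its extremes, and Rpa2 was at 61.8, 50.01, 50.7 and 62.3 CPM. Rpa3 was at 15.1, 15.6, 18.3 and 16.0 CPM and was the only gene of the list whose WT libraries both lay below both others, by a gap of under 1 CPM (log2 fold change 0.16, SE 0.26, adjusted p = 0.848). The median of the 3 was 0.01, but -0.13 with library totals and -0.14 to 0.16 with 1 library left out. With library totals the median of all genes was -0.15.

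Okazaki fragments are trimmed by Fen1, a flap endonuclease, and sealed by Lig1, DNA ligase I. Lig1 was at 76.7, 68.8, 47.3 and 57.3 CPM (log2 fold change -0.48, SE 0.20, adjusted p = 0.375). Fen1 was at 124, 104, 98.0 and 102 CPM. Neither overlapped between the groups, but for Fen1 the gap was small, and 78.8% of its exon bases are shared with Gm10143 on the opposite strand.

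The 5 enzymes of nucleotide supply had a median of -0.43, and all 5 values were below 0. The median was -0.16 without WT replicate 1 and -0.45 without WT replicate 2. Tk1, the thymidine kinase of S phase, was at 147, 98.1, 69.0 and 83.6 CPM (log2 fold change -0.69, SE 0.23, adjusted p = 0.273). WT replicate 1 was far above WT replicate 2, and both were above the libraries labelled Trim24-deficient. Rrm2, the S-phase subunit of ribonucleotide reductase, was at 137, 96.9, 81.2 and 90.6 CPM in the same order (log2 fold change -0.45, SE 0.21, adjusted p = 0.433). Rrm1, its large subunit, was at 264, 204, 184 and 208 CPM and overlapped through the replicates numbered 2. Tyms, thymidylate synthase, was at 118, 139, 109 and 83.2 CPM and did not overlap, with the library labelled Trim24-deficient replicate 2 as the lowest. Dut, which removes dUTP, was at 36.5, 26.7, 28.5 and 24.9 CPM and overlapped.

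Among the factors of chromatin replication, Chaf1a, the large subunit of the histone chaperone CAF-1, was at 64.6, 62.1, 41.5 and 39.2 CPM. The replicates of each group were close to each other and the groups did not overlap (log2 fold change -0.65, SE 0.19, adjusted p = 0.217). Of the 5535 exon bases of the annotated transcripts of Chaf1a, 33.6% are shared with Ubxn6 on the opposite strand. The deposited length of Chaf1a is 3308 bases, so the shared part of the counted transcript was not measured. Chaf1b, its partner in CAF-1, was at 42.8, 37.1, 29.6 and 37.6 CPM, where the library labelled Trim24-deficient replicate 2 lay between the WT libraries. Uhrf1, which guides maintenance methylation at the fork, was at 117, 104, 89.7 and 97.0 CPM without overlap. Slbp, which binds histone mRNA, was at 104, 108, 101 and 132 CPM with overlap.

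The 3 regulators of entry into S phase overlapped between the groups, with a median of 0.18 and 1 of the 3 below 0. The median was -0.17 without WT replicate 2 and -0.05 without the library labelled Trim24-deficient replicate 2. It was 0.03 with library totals, where the median of all genes was -0.15. E2f1, a transcription factor that activates many of these genes, was at 130, 137, 129 and 173 CPM (log2 fold change 0.18, SE 0.20, adjusted p = 0.773). Ccne1, a cyclin that starts S phase with Cdk2, was at 44.8, 21.7, 38.3 and 38.0 CPM (log2 fold change 0.20, SE 0.31, adjusted p = 0.834). Its WT values differed more from each other than from the libraries labelled Trim24-deficient, and it was -0.23 without WT replicate 2. Ccne2, the related cyclin, was at 21.8, 26.3, 12.99 and 25.7 CPM, low only in the library labelled Trim24-deficient replicate 1.

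**Figure D3:**
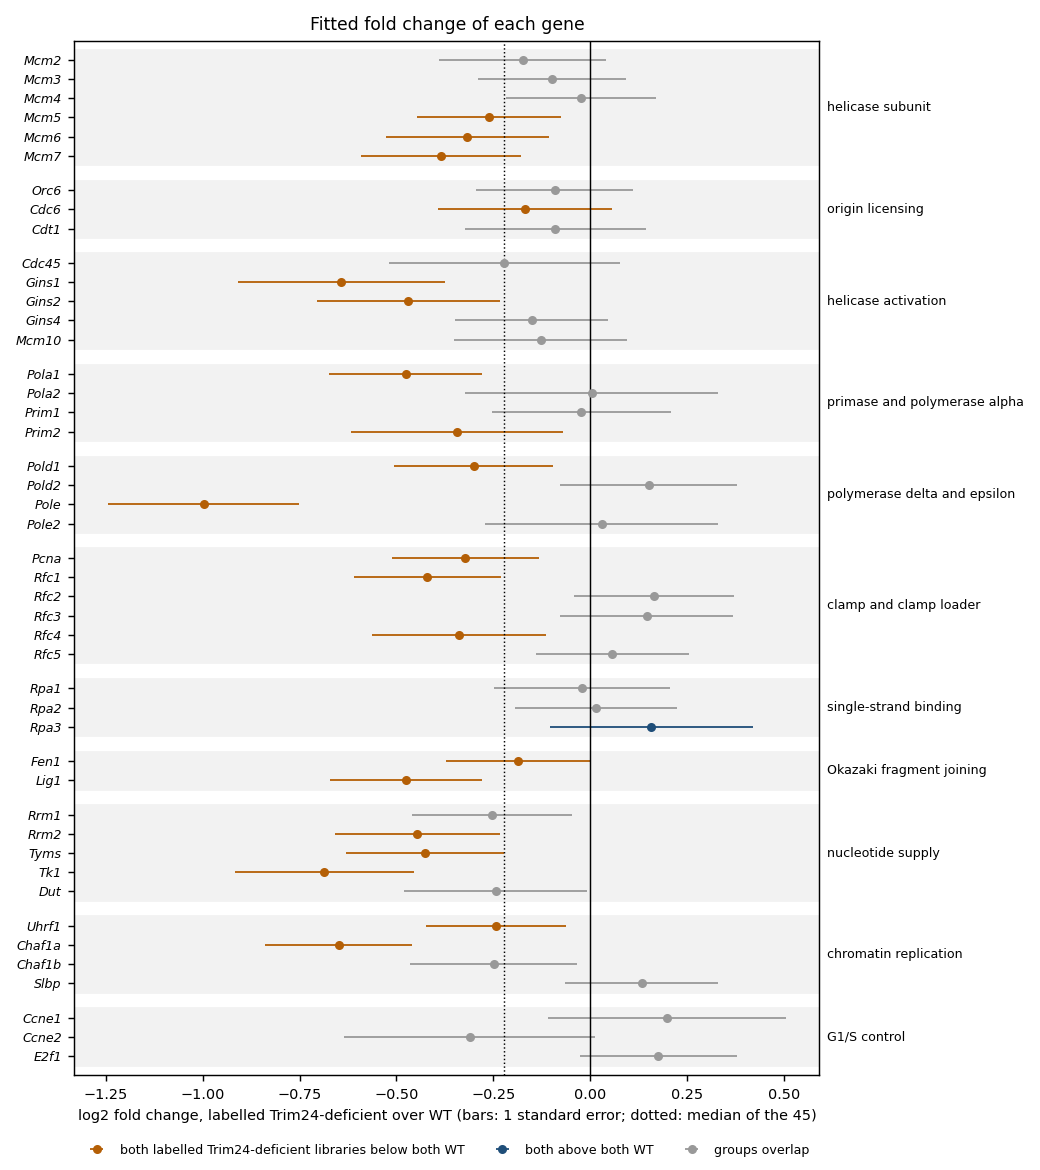
Fitted log2 fold change of each gene, libraries labelled Trim24-deficient over WT, with bars of 1 standard error, grouped by role; the color gives the order of the libraries and the dotted line the median of the 45, -0.22. Pole stands lowest at -0.998, 20 genes have both libraries labelled Trim24-deficient below both WT libraries, and none passed the test.

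Levels of different genes are compared per length, in FPKM. Pcna was the highest of the list, at 201, 179, 138 and 136 FPKM, and Pola2 came next at 120, 159, 80.3 and 171 FPKM. The ranges of these genes touched, since Pola2 exceeded Pcna in the library labelled Trim24-deficient replicate 2 alone. Mcm6 followed at 62.2 to 104 FPKM, then Tk1 at 47.7 to 109.7 FPKM and Rfc2 at 58.7 to 79.1 FPKM, ranges that overlap. Pole was the lowest at 1.96 to 4.87 FPKM, with Cdc6 next at 4.84 to 6.87 FPKM.

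Subunits that work in 1 complex were not at equal transcript levels. Pola2 exceeded Pola1, its catalytic partner, by 13.6 and 17.9 times in FPKM in WT and by 13.2 and 31.5 times in the libraries labelled Trim24-deficient. Pole2 exceeded Pole by 1.43 and 1.96 times in WT and by 3.86 and 2.94 times in the libraries labelled Trim24-deficient. The Pole2 to Pole ratio thus did not overlap between the groups, through the lower level of Pole. Pole2 has a length of 1695 bases and Pole of 7167 bases, and fold changes fell with length over all tested genes (Spearman's rho -0.25). With the trend on length removed, the log2 fold change was -0.79 for Pole and -0.03 for Pole2. The ratio of Pold2 to Pold1 was 1.99 and 1.62 against 2.50 and 2.47, and that of Rrm2 to Rrm1 was 0.951 and 0.870 against 0.806 and 0.796. The groups did not overlap for these ratios either. Mcm6 exceeded Mcm4 by 3.001 and 3.23 times in WT against 2.32 and 2.74 times. The ratios of Prim1 to Prim2 (1.95 to 3.16) and Rpa1 to Rpa2 (1.03 to 1.31) overlapped, while that of Chaf1b to Chaf1a was 1.16 and 1.04 against 1.24 and 1.67. Pold2 and Chaf1b are also shorter than their partners, as are Rrm2 and Mcm6, whose ratios moved the other way. The ratios were not corrected for length trends, and the part of length in them was not tested.

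The 12 genes with an E2F motif in the promoter window, which include Mcm5, Mcm6, Cdc6 and Pola1 printed above, had a median log2 fold change of -0.25, with 10 below 0 and 8 without overlap and lower. The 25 genes with a promoter entry and no match had a median of -0.17, with 17 below 0 and 8 without overlap and lower. Over all tested genes, 23.0% were without overlap and lower. The 8 genes without a promoter entry had the lowest median, -0.33, with 7 below 0. The differences between these medians were not tested.

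Other genes of the same processes were counted from lists of their own. Of 30 other replication factors, 0 were called and 23 were below 0 (76.7%, against 50.6% of all tested genes). Their median was -0.22, the same as that of the 45 genes. Of these 30, 15 did not overlap and were lower, where 23.0% of all tested genes did so. Another 3 did not overlap and were higher, where 21.5% of all tested genes did so. The lowest were Clspn, a checkpoint adaptor at the fork, at 19.0, 16.3, 6.39 and 7.40 CPM (log2 fold change -1.35, SE 0.31, adjusted p = 0.130), the helicase Recql4 at -1.11, and Dbf4, the activator of the kinase Cdc7, at 32.3, 28.3, 14.5 and 15.2 CPM (log2 fold change -1.03, SE 0.23, adjusted p = 0.134). The highest were Orc5 at 0.59 and Pold4 at 0.47. Of 8 other factors of chromatin replication, 0 were called and 7 were below 0, with a median of -0.29, and Dnmt1, the maintenance methyltransferase, was at 123, 124, 94.4 and 94.1 CPM. At an unadjusted p under 0.05, 4 of the 30 (13.3%) and 0 of the 8 passed in edgeR, against 12.2% of all tested genes.

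Of the 8 other genes of nucleotide supply, 0 were called and 3 were below 0 (37.5%, against 50.6% of all tested genes). Among them 2 did not overlap and were lower (25.0%, against 23.0% of all tested genes). Another 2 did not overlap and were higher (25.0%, against 21.5%), and 4 overlapped. The median was 0.10, but -0.05 with library totals, -0.10 with limma, and -0.12 to 0.26 with 1 library left out, the lowest without the library labelled Trim24-deficient replicate 2. With library totals and limma the medians of all genes were -0.15 and -0.13. Samhd1, which degrades dNTPs and is abundant in myeloid cells, was at 332, 246, 672 and 514 CPM (log2 fold change 1.04, SE 0.24, adjusted p = 0.137). Dguok, a mitochondrial nucleoside kinase, was at 29.3, 29.0, 39.6 and 47.3 CPM (log2 fold change 0.58, SE 0.20, adjusted p = 0.300). Of these 8 genes, 2 passed an unadjusted p under 0.05 in edgeR, against 12.2% of all tested genes.

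Of 23 G1/S cyclins, kinases and E2F or RB family genes, 0 were called and 19 were below 0, with a median of -0.39. Of these 23, 14 did not overlap and were lower (60.9%, against 23.0% of all tested genes). The lowest were Tfdp2 at -1.44 and the repressors E2f7 at -0.82 and E2f8 at -0.77. Ccnd1, cyclin D1, was at 179, 185, 135 and 142 CPM. Of 6 listed CDK inhibitors, 4 were tested, 0 were called, 3 were below 0 and 2 did not overlap and were lower, with a median of -0.18. The exception above 0, Cdkn1a, which encodes p21, was at 234, 227, 307 and 315 CPM (log2 fold change 0.43, SE 0.19, adjusted p = 0.405). Of 8 S-phase checkpoint genes, 0 were called and 7 were below 0, with a median of -0.25. Of these 8, 2 did not overlap and were lower (25.0%, near the 23.0% of all tested genes). At an unadjusted p under 0.05, edgeR counted 6 of the 23, 1 of the 4 and 0 of the 8, against 12.2% of all tested genes.

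Mitosis genes, which act after replication, had the largest share of genes without overlap among these lists. Of 24 genes, 22 were below 0 (91.7%, against 50.6% of all tested genes), and 20 did not overlap and were lower (83.3%, against 23.0%). The median was -0.49 (-0.32 without the library labelled Trim24-deficient replicate 1). In edgeR, 12 of the 24 had an unadjusted p under 0.05, against 12.2% of all tested genes. Mki67, the proliferation antigen Ki-67, was at 142, 182, 71.6 and 71.1 CPM and was the 1 gene called (log2 fold change -1.18, SE 0.20, adjusted p = 0.0453). Among all tested genes, 0.372% were called. Top2a, topoisomerase II alpha, was at 177, 176, 109 and 94.1 CPM (log2 fold change -0.80, SE 0.19, adjusted p = 0.141). The summed mitosis level was 2187 and 2254 CPM in WT against 1518 and 1796 CPM. Both sums were below both WT sums. The sums of the 45 replication genes overlapped between the groups in TMM-scaled CPM, but not with library totals, upper-quartile factors or in FPKM. The difference between the lists was not tested.

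**Figure D4:**
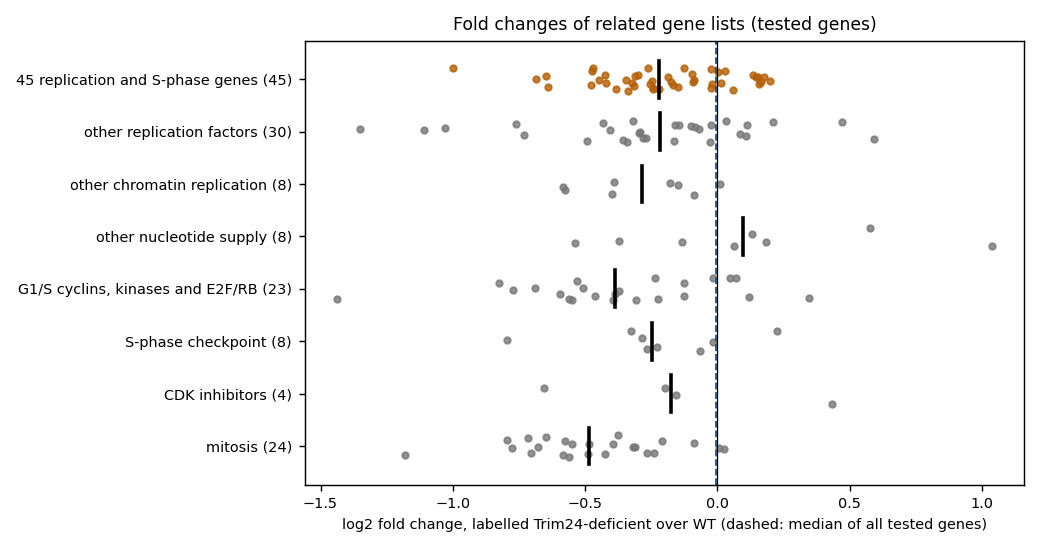
Fitted log2 fold changes of the tested genes of each list, libraries labelled Trim24-deficient over WT; each point is 1 gene, the thick bar is the median of the list and the dashed line the median of all tested genes. The 45 replication genes have a median of -0.22 and the mitosis genes of -0.49, while the median of the other genes of nucleotide supply, 0.10, turns below 0 with library totals. With library totals the median of all genes is -0.15.

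Fold changes also varied with gene length. Over all 11302 tested genes, Spearman's rho of the log2 fold change with length was -0.25, and over the 45 genes it was -0.28, given as a description across genes that share the same libraries. The 22 shorter genes of the list had a median of -0.12 and the 23 longer ones of -0.25, while the shorter and longer genes among all those tested had medians of 0.07 and -0.09. The median length was 2245 bases for the list and 2810 bases for all tested genes. With the trend on length removed, the median of the 45 genes was -0.21, 36 were below 0 and 0 were called. Of the 45 genes, 29 shared no exon base with another gene, and of these 22 were below 0, with a median of -0.17.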

How the data were processed

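Gene-level tables of 4 RNA-seq libraries of sorted TAMs were analysed, 2 WT and 2 labelled Trim24-deficient. Per the labels, the authors used Bowtie and RSEM with GRCm38 (mm10), with no versions given. Each deposited table gives the expected count of a gene without normalization (76.6% to 77.7% of values whole), an FPKM value, scaled to transcript length and library total, and the length itself. Strandedness is not given in the sources used here. Expected counts were rounded. With edgeR 4.0.16 in R 4.3.3, filterByExpr kept 11302 genes, TMM scaled the libraries (factors 0.943 to 1.08), and glmQLFit and glmQLFTest compared the groups without a block, with Benjamini-Hochberg adjustment over all genes. The standard error is the log2 fold change divided by the square root of F. As in the study's methods, genes were called when the fold change exceeded 1.5 with an FDR under 0.05. CPM are TMM-scaled.

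Alternatives were a replicate block, DESeq2 1.42.0, library totals, upper-quartile factors, no filter, at least 10 counts in every library, limma 3.58.1 with trend for genes that reach an FPKM of 1 in 2 or more libraries, with pseudocounts of 1 and 0.1, and unfiltered with the former, and each library left out. Removal of a length trend, the sum without Pola2 and the motif search were chosen after seeing the data. The members and lists were chosen with earlier results of these data known. Fits are printed for the 6 highest and 6 lowest of the 45 genes, for called ones and for Mcm2, Pcna, Rrm2 and E2f1, and up to 3 genes at each end of other lists are named, with Mki67, Top2a, Ccnd1, Cdkn1a and Dnmt1. The value of 1 further gene of these lists is not reported here. Symbols matched 16698 of 16739 identifiers. Exon overlaps are from GENCODE M21 basic, over all transcripts of a gene together. Scripts were checked on simulated counts.

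With 2 libraries per group, an exact two-sided permutation test cannot go below p = 0.333, and the adjusted p-values use a spread that edgeR shares between genes, measured only between these libraries.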

Additional observations from a re-analysis of the deposited data

How the results depend on the processing

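The count of 0 called replication genes held under every alternative except the replicate block and the fit without the library labelled Trim24-deficient replicate 2. The labels number the libraries 1 and 2 in each group, but nothing says that same-numbered mice were paired, and their deviations correlated at 0.165. With the replicate block, 634 genes and 2 of the 45 were called, Pole (adjusted p = 0.0074) and Tk1 (adjusted p = 0.0387). All genes called were 42, and were 156 with DESeq2, 23 with limma on log2(FPKM + 1) (14 higher and 9 lower, against 33 and 9), 20 with a pseudocount of 0.1 (11 and 9), 0 with limma without a filter (9.77% of genes at an unadjusted p under 0.05), and 25 to 652 with 1 library left out. Members called then ranged from 0 to 2. The median log2 fold change of the 45 genes was -0.36 with library totals, where the median of all genes was -0.15, and -0.31 to -0.09 with 1 library left out. Rfc3 turned to -0.0006 with library totals, and to -0.005, -0.0053 and -0.005 with the limma fits. In those limma fits the medians of all genes were -0.13, -0.15 and -0.09. With 1 library left out, signs turned within ranges of -0.2318 to 0.8326 for Ccne1, -0.0718 to 0.4337 for Pold2, -0.0549 to 0.3341 for Rfc3, -0.0767 to 0.3772 for Rfc2, -0.0464 to 0.3757 for E2f1 and -0.4579 to 0.0693 for Mcm2. The cause was not tested. The precision is set by 2 libraries per group of 4476122 to 5172407 counts. A lone library left in a group is assumed to vary like the other group.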
